A study of Drosophila melanogaster with 18 samples.

Results

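DNA transposons and Helitrons are the mobile elements of the fly genome that move as DNA. In the deposited RNA table they are the 36 of 17994 rows whose identifier is not a FlyBase gene and whose annotated class is DNA (34 rows) or RC, for rolling circle (2 rows). They stand among 226 repeat elements, and the table assigns them to 9 families: TcMar-Tc1 with 12 rows, CMC-Transib and P with 7 each, MULE-NOF with 3, TcMar-Pogo and Helitron with 2 each, and PiggyBac, TcMar-Mariner and hAT-hobo with 1 each. The RNA came from whole embryos of Drosophila melanogaster, kept at 25 °C and no older than 1.5 h (0 to 1.5 h), in 3 groups of 3 libraries. Per the labels, mothers of Piwi-MatKD_1 embryos were 37483/MAT-Gal4, mothers of Piwi-MatKD_2 embryos were THU/MAT-Gal4 and mothers of the control, GFP-MatKD, were 41550/MAT-Gal4, and every father was w1118. All 3 groups therefore carried the maternal driver MAT-Gal4, and each had its own hairpin stock, so that the hairpin and the stock's genetic background, resident transposons included, cannot be told apart. In the growth protocol the UAS-shRNA is in the females and the driver in the males, so the direction of the cross is uncertain. Nothing states that replicates came from separate cages, so p-values measure the spread between these libraries.

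A DNA transposon of the cut-and-paste kind encodes a transposase, which binds the inverted repeats at the element's ends, excises the element and inserts it elsewhere. Helitrons lack such ends and are thought to move by rolling-circle replication. In the fly germline, Piwi, a nuclear protein of the Argonaute family, is guided by piRNAs to nascent transposon transcripts and directs their silencing in chromatin. Mothers load Piwi and piRNAs into the egg. DNA transposons are classical cases of this inheritance: P elements and hobo can cause sterility in the offspring of fathers that carry them and mothers that do not.

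The targeted gene and several features of the libraries bear on what follows. piwi stood at 355 ± 85.7 normalised reads in Piwi-MatKD_1, 305 ± 299 in Piwi-MatKD_2 and 8748 ± 715 in GFP-MatKD (SD, n = 3), a log2 fold change of -4.65 (adjusted p = 0.0159, limma) and -5.32 (adjusted p = 0.00206). Leaving out a library took the first of these past an adjusted p of 0.05 in 7 of 9 cases. Libraries held 20.2 to 61.2 M reads in Piwi-MatKD_1, 8.5 to 73.0 M in Piwi-MatKD_2 and 16.5 to 45.0 M in GFP-MatKD. The Piwi-MatKD_2 columns could be matched to their group but not to a replicate number, and are named by their totals of 21.6, 73.0 and 8.5 M reads. Genes for rRNA took 10.9% and 5.90% of the reads in the libraries of 21.6 M and 8.5 M, and 0.182% to 0.535% in the other 7. Of 14 muscle genes that mark older embryos, all had reads in Piwi-MatKD_1 replicate 2, where they summed to 2022 normalised reads. In the other 8 libraries they summed to 52.6 to 208, with 3 to 9 of the 14 at 0. The 29 early zygotic genes, a marker of embryo age, had a median level per library of 79.1 to 149 normalised reads in Piwi-MatKD_1, 6.28 to 41.9 in Piwi-MatKD_2 and 93.3 to 207 in GFP-MatKD. Their median log2 fold change was -2.61 for Piwi-MatKD_2 and -0.31 for Piwi-MatKD_1 (limma). In Piwi-MatKD_2, 6 of 29 fell at an adjusted p under 0.05 (limma), beside 3.04% of all features called in either direction. The 29 genes summed to 12021 to 19110.3 in Piwi-MatKD_1, 4687 to 10589 in Piwi-MatKD_2 and 13185 to 25192 in GFP-MatKD. The part of embryo age in the values of the elements was not tested. Of 13 follicle cell genes, 8 to 11 were at 0 in each library.

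DNA transposons and Helitrons made up a very small part of the RNA. In Piwi-MatKD_1 they had 9750, 2159 and 7396 reads in replicates 1 to 3, which is 0.0159%, 0.0107% and 0.0191% of all reads. In Piwi-MatKD_2 they had 4380, 8939 and 813 reads in the libraries of 21.6, 73.0 and 8.5 M, or 0.0203% (95% Wilson interval 0.0197 to 0.0209), 0.0122% (0.0120 to 0.0125) and 0.00954% (0.00890 to 0.0102). In GFP-MatKD they had 6821, 2480 and 4981 reads, or 0.0151%, 0.0150% and 0.0151%. The control libraries were almost identical, and each knockdown line had libraries on both sides of them. The group means were 0.0152% ± 0.00424 in Piwi-MatKD_1, 0.0140% ± 0.00559 in Piwi-MatKD_2 and 0.0151% ± 6.39e-05 in GFP-MatKD (SD, n = 3), so that the means differed by less than the spread within either line. Intervals cover counting error only. In whole embryos of 0 to 1.5 h, RNA loaded by the mother and RNA made by the embryo cannot be told apart.

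Set against the other repeat elements, the share of DNA transposons and Helitrons was smaller in both lines. They took 7.31%, 7.05% and 8.92% of the reads of all repeat elements in Piwi-MatKD_1 embryos, 1.12%, 7.79% and 1.04% in Piwi-MatKD_2, against 11.4%, 12.1% and 9.46% in GFP-MatKD. All 6 Piwi-MatKD libraries lay below all 3 GFP-MatKD libraries. The reads of the other classes enter this share. LTR retrotransposons, which copy themselves through RNA, took 0.0834% to 0.131% of all reads in Piwi-MatKD_1, 0.0719% to 0.142% in Piwi-MatKD_2 and 0.0607% to 0.0625% in GFP-MatKD. LINE elements, which also move through RNA, took 1.65% and 0.824% in 2 libraries of Piwi-MatKD_2, of 21.6 M and 8.5 M reads, those rich in rRNA, and 0.0478% to 0.0837% in the other 7 libraries. These shares were not tested.

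Few elements supplied most of the reads. POGO, DNAREP1_DM and HOBO together took 57.8% to 74.8% of the reads of all 36 rows in each library. POGO is the pogo element, the founder of its family. DNAREP1_DM, also called INE-1, is an old and very abundant non-coding element found in introns and heterochromatin. HOBO is a member of the hAT family, to which Ac of maize belongs. Of the 36 rows, 26 to 31 had at least 1 read in a library, and 13 to 24 had at least 10. P-1_DY and Rehavkus-1_DY had 0 of 317.9 M reads, which allows up to 0.00944 reads per 1 M reads. MuDR-1_DEl and UHU had 7 reads each over all libraries, Mariner_DMA had 4 and PLACW_DM had 2. Those 6 rows did not reach a value of 1 in at least 3 libraries, and the other 30 were tested.

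**Figure D1:**
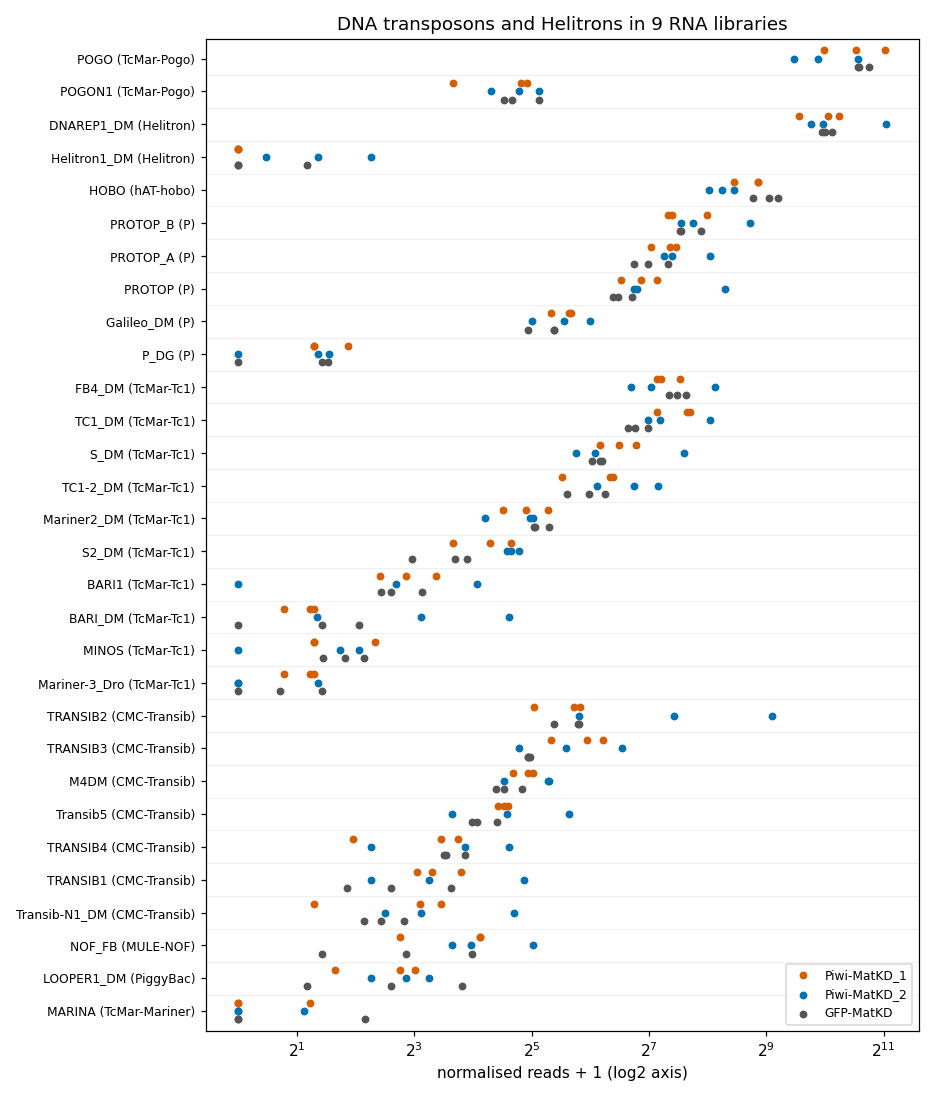
Normalised reads plus 1 (horizontal log2 axis) of the 30 tested DNA transposons and Helitrons, with 1 row per element, its family in brackets and 1 point per library for Piwi-MatKD_1, Piwi-MatKD_2 and GFP-MatKD. POGO, DNAREP1_DM and HOBO lie to the right, and for most elements the points of the 3 groups are intermixed, with 1 Piwi-MatKD_2 point often set apart to the right.

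The make-up of these reads differed in Piwi-MatKD_2. POGO took 34.2%, 32.2% and 39.4% of them in Piwi-MatKD_1 embryos, 22.0%, 27.4% and 22.9% in Piwi-MatKD_2, against 35.6%, 40.9% and 34.9% in GFP-MatKD. DNAREP1_DM took 24.6%, 24.0% and 22.9% in Piwi-MatKD_1 embryos, 30.7%, 29.0% and 28.0% in Piwi-MatKD_2, against 24.0%, 23.6% and 25.7% in GFP-MatKD. For both elements the Piwi-MatKD_2 libraries stood apart from the other 6, with POGO lower and DNAREP1_DM higher. HOBO took 8.73% to 11.2% in Piwi-MatKD_1, 5.07% to 8.71% in Piwi-MatKD_2 and 10.4% to 13.7% in GFP-MatKD. Such shares depend on one another and on element length, and they do not depend on how libraries were scaled; they were not tested.

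No DNA transposon or Helitron passed the test in any comparison. The test was limma on log2(normalised reads + 1), with Benjamini-Hochberg adjustment over all 10767 genes and repeat elements and a threshold of 0.05 on the adjusted p. In Piwi-MatKD_1 against GFP-MatKD 0 of 30 passed, where 0.186% of all features did. For Piwi-MatKD_2 the count was 0 of 30 beside 3.04%, and for the mean of both lines 0 of 30 beside 0.715%. At background shares this low, fewer than 1 of 30 would be called at the same rate, so a count of 0 is near the background. At an unadjusted p under 0.05, limma called 1, 3 and 3 of the 30 in these comparisons, beside 2.85%, 15.3% and 7.91% of all features. edgeR on the recovered reads called 0 of 21 in each, beside 0.22%, 3.77% and 0.962%. DESeq2 called 0 of 25, 2 of 25 and 0 of 26, beside 0.808%, 8.36% and 2.94%. Its calls in Piwi-MatKD_2 were HOBO and TRANSIB2. With array quality weights limma called 0, 3 and 1 of 30, beside 0.241%, 17% and 3.74% of all features, namely HOBO, POGO and S2_DM in Piwi-MatKD_2 and HOBO for the mean.

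The fold changes lay on both sides of 0. In Piwi-MatKD_1, 16 of the 30 had a positive log2 fold change, with a median of 0.14 and a range of -0.58 to 0.91, beside a median of 0.01 over all features. In Piwi-MatKD_2 it was 19 of 30, with a median of 0.35 and a range of -0.77 to 1.86, beside -0.04. For the mean of both lines it was 21 of 30, with a median of 0.29 beside -0.02. For the 11 elements with a mean of at least 50 normalised reads, a limit chosen after the values were seen, the median was -0.08 in Piwi-MatKD_1, with the opposite sign to the median of all 30, and 0.35 in Piwi-MatKD_2. The lines share their control libraries, so that their values stand side by side and are not independent. Most single elements were measured too loosely to exclude a change of 2-fold. The 95% interval lay wholly within 1 log2 unit of 0 for 7 of 30 elements in Piwi-MatKD_1, for 3 of 30 in Piwi-MatKD_2 and for 9 of 30 for the mean.

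**Figure D2:**
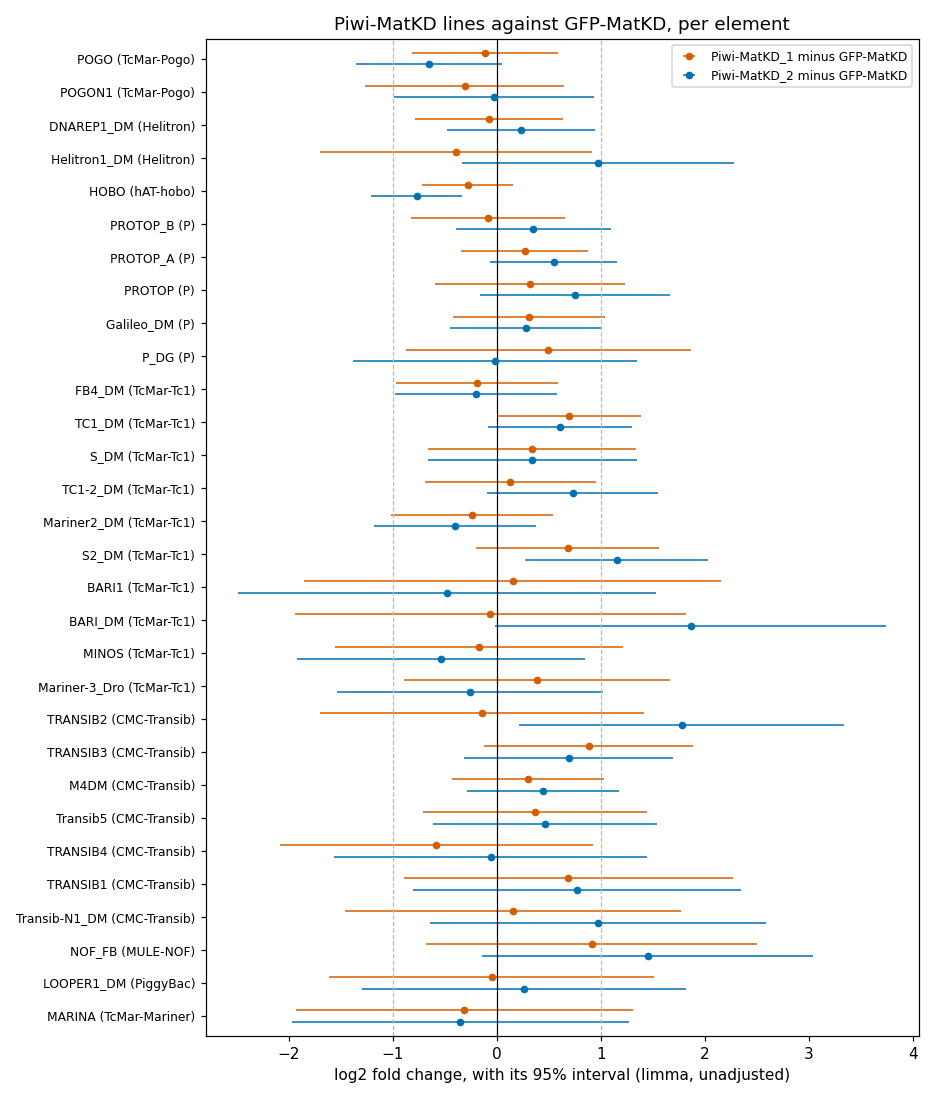
Log2 fold change (horizontal axis) with its unadjusted 95% interval from limma for each of the 30 tested elements in both Piwi-MatKD lines, each against GFP-MatKD; dashed lines mark 1 log2 unit on either side of 0. The intervals of HOBO, S2_DM and TRANSIB2 in Piwi-MatKD_2 and of TC1_DM in Piwi-MatKD_1 leave out 0, and no adjusted p passed.

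Retrotransposons in the same fits did pass. Of 129 LTR elements, 5 rose in Piwi-MatKD_1, and 12 rose and 5 fell in Piwi-MatKD_2. Of 37 LINE elements, 2 rose in Piwi-MatKD_1 and 4 did so in Piwi-MatKD_2. Among elements with a mean of at least 50 normalised reads, 0 of 11 DNA transposons and Helitrons were called in either line. For Piwi-MatKD_1 these counts were 5 of 65 LTR and 2 of 25 LINE elements, and for Piwi-MatKD_2 they were 15 and 4. Over all 7476 features with a mean of at least 50, not otherwise matched in level, the shares called were 0.241% in Piwi-MatKD_1 and 3.34% in Piwi-MatKD_2. No test of the difference between the classes was made.

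HOBO was the element nearest to the threshold. It had 466, 349 and 463 normalised reads in Piwi-MatKD_1 replicates 1 to 3, 348, 301 and 259 in the Piwi-MatKD_2 libraries of 21.6, 73.0 and 8.5 M reads, and 587, 436 and 528 in GFP-MatKD. The Piwi-MatKD_2 libraries lay below all others, though the highest of them nearly equalled the lowest Piwi-MatKD_1 library, and the Piwi-MatKD_1 and GFP-MatKD libraries overlapped. The means were 426 ± 66.7 in Piwi-MatKD_1, 303 ± 44.5 in Piwi-MatKD_2 and 517 ± 76.2 in GFP-MatKD (SD, n = 3). In Piwi-MatKD_2 the log2 fold change was -0.77 (SE 0.19, 95% interval -1.21 to -0.33), and the adjusted p in limma was 0.0794. In Piwi-MatKD_1 it was -0.28 (interval -0.72 to 0.16, adjusted p = 1.00). The call in Piwi-MatKD_2 turned on the method: over 20 alternatives the adjusted p ran from 0.00335 to 0.320, and HOBO passed in DESeq2, with array quality weights in limma (adjusted p = 0.00426) and without the library of 21.6 M reads (-0.87, adjusted p = 0.0487). All 20 gave a fold change below 0, from -0.92 to -0.66.

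POGO, read most of all, also had its lowest libraries in Piwi-MatKD_2. It stood at 1484, 1008 and 2089 normalised reads in Piwi-MatKD_1 embryos, 1513, 946 and 709 in Piwi-MatKD_2, against 1527, 1721 and 1510.2 in GFP-MatKD. The groups overlapped, since the Piwi-MatKD_2 library of 21.6 M reads lay at the control level. The means were 1527 ± 542 in Piwi-MatKD_1, 1056 ± 413 in Piwi-MatKD_2 and 1586 ± 117 in GFP-MatKD (SD, n = 3). POGO had a log2 fold change of -0.11 in Piwi-MatKD_1 (95% interval -0.82 to 0.59) and -0.66 in Piwi-MatKD_2 (interval -1.36 to 0.05, adjusted p = 0.366 in limma). With array quality weights the value in Piwi-MatKD_2 passed (adjusted p = 0.0179), and over all 20 alternatives the adjusted p reached 0.657. POGON1, a short relative that may share reads with POGO, had 11.6 to 29.4 normalised reads in Piwi-MatKD_1, 18.8 to 34.0 in Piwi-MatKD_2 and 22.1 to 33.9 in GFP-MatKD.

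The Tc1 family, named for an element of Caenorhabditis elegans, held the single member whose 6 Piwi-MatKD libraries all lay above the 3 GFP-MatKD libraries. TC1_DM had 199, 139 and 207 normalised reads in Piwi-MatKD_1 embryos, 262, 144 and 126 in Piwi-MatKD_2, against 108, 98.4 and 125 in GFP-MatKD. The lowest Piwi-MatKD library and the highest control library were nearly equal, at 125.8 and 125.0. Groups of 6 and 3 libraries were separate in this direction for 1 of 30 elements, beside 1.76% of all features, and in the other direction for 0 of 30, beside 2.02%. Its log2 fold change was 0.70 in Piwi-MatKD_1 (95% interval 0.01 to 1.39) and 0.61 in Piwi-MatKD_2 (interval -0.08 to 1.30), and for the mean of both lines it was 0.65 (interval 0.06 to 1.25, adjusted p = 0.564 in limma). Among 21 alternatives for Piwi-MatKD_1 the values ran from 0.59 to 0.88, among 20 for Piwi-MatKD_2 from 0.29 to 0.82, and none passed.

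BARI1, a Tc1 element known for a tandem array in fly heterochromatin, was close to the limit of detection. It had 6.22, 4.35 and 9.32 normalised reads in Piwi-MatKD_1 embryos, 15.7, 5.42 and 0 in Piwi-MatKD_2, against 4.40, 5.09 and 7.81 in GFP-MatKD. These values rest on 3 to 14 reads per library in Piwi-MatKD_1, 0 to 14 in Piwi-MatKD_2 and 3 to 9 in GFP-MatKD. The log2 fold change was 0.15 in Piwi-MatKD_1 (95% interval -1.85 to 2.16) and -0.48 in Piwi-MatKD_2 (interval -2.49 to 1.53), so that a difference was not detectable at this depth. Its relative BARI_DM, named after its values were seen, had 5 reads in all in Piwi-MatKD_1, 21 in Piwi-MatKD_2 and 6 in GFP-MatKD.

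Of the 10 Tc1 rows tested, 6 had a positive log2 fold change for Piwi-MatKD_1, and for Piwi-MatKD_2 it was 5. S2_DM, a row of the S elements named after its values were seen, had 24.0, 11.6 and 18.6 normalised reads in Piwi-MatKD_1 embryos, 26.7, 24.0 and 22.9 in Piwi-MatKD_2, against 11.9, 6.79 and 13.9 in GFP-MatKD. The Piwi-MatKD_2 libraries lay above the control libraries, and those of Piwi-MatKD_1 overlapped them. The values rest on few reads per library: 8 to 54 in Piwi-MatKD_1, 6 to 62 in Piwi-MatKD_2 and 4 to 19 in GFP-MatKD. S2_DM had a log2 fold change of 0.68 in Piwi-MatKD_1 (95% interval -0.20 to 1.56) and 1.15 in Piwi-MatKD_2 (interval 0.28 to 2.03, adjusted p = 0.184 in limma, 0.0466 to 0.448 over 20 alternatives). S_DM, a related row with more reads, had 71.0 to 109 normalised reads in Piwi-MatKD_1, 53.4 to 193 in Piwi-MatKD_2 and 64.5 to 72.9 in GFP-MatKD. Mariner2_DM, also named afterwards, was lower in all 3 Piwi-MatKD_2 libraries, at 17.4 to 31.4, than in GFP-MatKD, at 32.1 to 38.3. The nearest values, 31.4 and 32.1, were almost equal, and single Piwi-MatKD_2 libraries held as few as 8 reads. For Piwi-MatKD_2 its adjusted p was 0.699 in limma. TC1-2_DM had 44.9 to 82.4 normalised reads in Piwi-MatKD_1, 68.6 to 141 in Piwi-MatKD_2 and 47.5 to 75.5 in GFP-MatKD. MINOS, first described in Drosophila hydei, and Mariner-3_Dro had 28 and 8 reads over all libraries.

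Foldback elements consist largely of long inverted repeats. FB4_DM, which the table lists under TcMar-Tc1, had 147, 139 and 184 normalised reads in Piwi-MatKD_1 embryos, 278, 129.6 and 103 in Piwi-MatKD_2, against 177, 161 and 197 in GFP-MatKD. The Piwi-MatKD_2 libraries lay on both sides of the controls. FB4_DM had log2 fold changes of -0.19 in Piwi-MatKD_1 (95% interval -0.97 to 0.59) and -0.20 in Piwi-MatKD_2 (interval -0.98 to 0.58). NOF_FB, the coding element carried by some foldback copies, had 16.4, 5.79 and 16.5 normalised reads in Piwi-MatKD_1 embryos, 31.4, 14.7 and 11.4 in Piwi-MatKD_2, against 6.28, 1.70 and 14.8 in GFP-MatKD. Its groups overlapped, and single libraries held as few as 4 reads in Piwi-MatKD_1, 3 in Piwi-MatKD_2 and 1 in GFP-MatKD. NOF_FB had a log2 fold change of 0.91 in Piwi-MatKD_1 (95% interval -0.68 to 2.51) and 1.45 in Piwi-MatKD_2 (interval -0.14 to 3.04, adjusted p = 0.381 in limma). The control libraries decided much of its size: without GFP-MatKD replicate 2 it was 0.25 for Piwi-MatKD_1 and 0.79 for Piwi-MatKD_2, and without GFP-MatKD replicate 3 it was 1.52 for Piwi-MatKD_1 and 2.06 for Piwi-MatKD_2.

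Transib elements have a transposase related to the RAG1 protein of vertebrate immune cells. TRANSIB2 had 55.6, 31.9 and 51.6 normalised reads in Piwi-MatKD_1, 546, 54.9 and 172 in the Piwi-MatKD_2 libraries of 21.6, 73.0 and 8.5 M reads, and 55.3, 40.7 and 54.7 in GFP-MatKD. A pair of Piwi-MatKD_2 libraries, those rich in rRNA, stood far above the rest, and the library of 73.0 M reads lay at the control level. The means were 46.3 ± 12.7 in Piwi-MatKD_1, 258 ± 257 in Piwi-MatKD_2 and 50.2 ± 8.24 in GFP-MatKD (SD, n = 3). The log2 fold change in Piwi-MatKD_2 was 1.78 (95% interval 0.22 to 3.34, adjusted p = 0.257 in limma). Without the libraries over 5% rRNA, which leaves 1 Piwi-MatKD_2 library whose spread is taken from the other groups, it was 0.14 (adjusted p = 0.899). Without the library of 73.0 M reads it was 2.60 (adjusted p = 0.0394), and in DESeq2 it was 2.35 (adjusted p = 0.0101). The part of rRNA content in this value was not tested.

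For Piwi-MatKD_2 the log2 fold changes of the other 6 Transib rows ran from -0.06 to 0.97, and for Piwi-MatKD_1 from -0.58 to 0.88. TRANSIB3 and Transib5, named after their values were seen, were higher in all Piwi-MatKD_1 libraries than in GFP-MatKD. TRANSIB3 had 60.5, 39.1 and 73.8 normalised reads in Piwi-MatKD_1 embryos, 92.6, 46.8 and 26.7 in Piwi-MatKD_2, against 29.5, 30.5 and 29.5 in GFP-MatKD. For Piwi-MatKD_1 its log2 fold change was 0.88 (95% interval -0.12 to 1.89). Transib5 had 20.4, 23.2 and 22.2 in Piwi-MatKD_1 embryos, 48.6, 22.8 and 11.4 in Piwi-MatKD_2, against 15.7, 20.4 and 14.8 in GFP-MatKD, and replicate 1 of Piwi-MatKD_1 stood only just above replicate 2 of GFP-MatKD. With TC1_DM they were the 3 of 30 that lay wholly above the controls in Piwi-MatKD_1, beside 4.79% of all features, and 0 of 30 lay wholly below, beside 5.12%. In Piwi-MatKD_2, 3 of 30 lay wholly above the controls, namely PROTOP, S2_DM and TC1_DM, beside 8.07%, and HOBO and Mariner2_DM lay wholly below, beside 12.9%. Over the 7 Transib rows, 5 had a positive log2 fold change for Piwi-MatKD_1, and for Piwi-MatKD_2 it was 6. TRANSIB1, TRANSIB4, Transib-N1_DM and M4DM averaged 6.35 to 28.6 normalised reads in Piwi-MatKD_1, 12.5 to 32.6 in Piwi-MatKD_2 and 4.62 to 23.2 in GFP-MatKD.

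The PROTOP rows of the P family are old relatives of the P element. PROTOP_B had 159.6, 168 and 253 normalised reads in Piwi-MatKD_1 embryos, 424, 186 and 214 in Piwi-MatKD_2, against 183, 236 and 186 in GFP-MatKD. Its groups overlapped, and the log2 fold change was -0.08 in Piwi-MatKD_1 (95% interval -0.82 to 0.66) and 0.35 in Piwi-MatKD_2 (interval -0.39 to 1.10). PROTOP, named after its values were seen, had 116, 91.3 and 139.7 in Piwi-MatKD_1 embryos, 312, 107 and 111 in Piwi-MatKD_2, against 87.3, 83.2 and 104 in GFP-MatKD. All Piwi-MatKD_2 libraries were above the controls, the library of 73.0 M by little, and the log2 fold change of 0.76 had an interval of -0.16 to 1.67. PROTOP_A had 130.4 to 176 normalised reads in Piwi-MatKD_1, 152 to 264 in Piwi-MatKD_2 and 107 to 159 in GFP-MatKD. Galileo_DM, of a group known from chromosomal inversions in Drosophila buzzatii, had 39.1 to 49.8 in Piwi-MatKD_1, 31.3 to 62.8 in Piwi-MatKD_2 and 29.5 to 40.8 in GFP-MatKD. P_DG had 19 reads over all libraries. Reads of the PROTOP rows, like those of S_DM and S2_DM or FB4_DM and NOF_FB, may be split between similar sequences.

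DNAREP1_DM, the abundant rolling-circle row, stood at 1065, 750.4 and 1215 normalised reads in Piwi-MatKD_1 embryos, 2110.3, 1001 and 869 in Piwi-MatKD_2, against 1030.3, 993 and 1110.1 in GFP-MatKD. The controls were close together, and 1 Piwi-MatKD_2 library was about 2-fold above them. The log2 fold change was -0.08 in Piwi-MatKD_1 (95% interval -0.79 to 0.64) and 0.23 in Piwi-MatKD_2 (interval -0.48 to 0.94). Helitron1_DM had 5 reads in all. LOOPER1_DM, a relative of piggyBac, had 2.15 to 7.11 normalised reads in Piwi-MatKD_1, 3.81 to 8.51 in Piwi-MatKD_2 and 1.26 to 13.0 in GFP-MatKD. MARINA had 10 reads in all. For these last 3 rows a difference was not detectable at this depth.

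**Figure D3:**
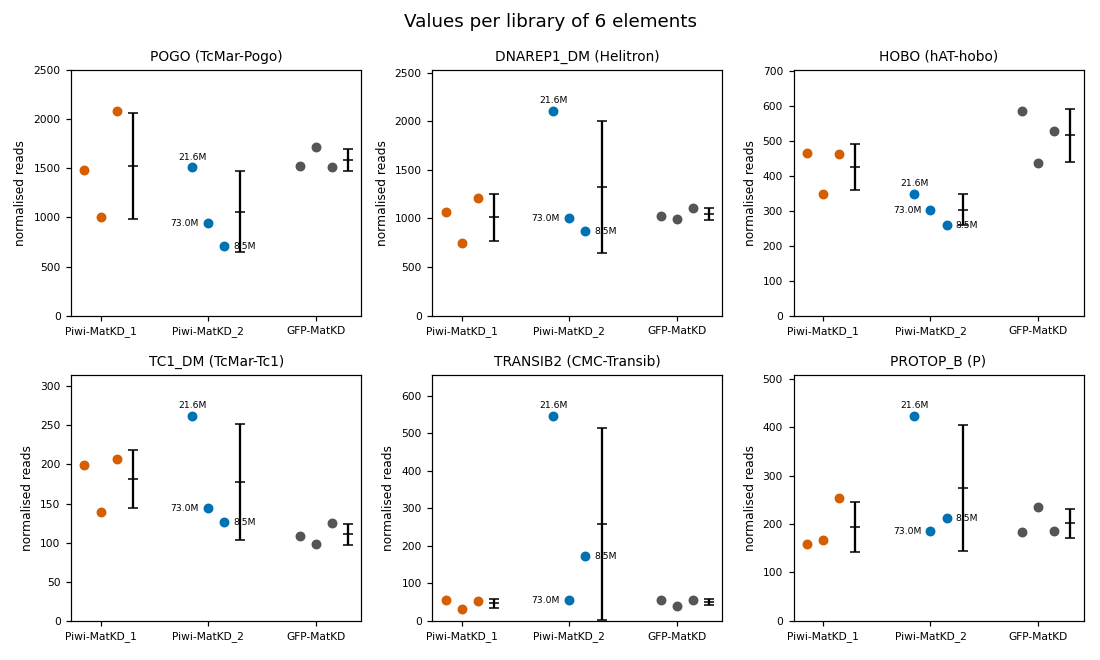
Normalised reads per library (vertical axes, each from 0) of POGO, DNAREP1_DM, HOBO, TC1_DM, TRANSIB2 and PROTOP_B in Piwi-MatKD_1, Piwi-MatKD_2 and GFP-MatKD; black marks give the mean and SD of 3 libraries, and Piwi-MatKD_2 points carry their read totals. The library of 21.6 M reads lies highest for DNAREP1_DM, TC1_DM, TRANSIB2 and PROTOP_B, while for HOBO all Piwi-MatKD_2 points lie below the control points.

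A single library carried much of the spread in Piwi-MatKD_2. Relative to the GFP-MatKD mean of each element, the median log2 deviation of the 30 elements was 1.02 in the library of 21.6 M reads, where 25 of 30 were above 0 and 16 were above 1. It was 0.16 in the library of 73.0 M and -0.16 in that of 8.5 M. In Piwi-MatKD_1 it was 0.34, -0.12 and 0.36, and in GFP-MatKD 0.00, -0.10 and 0.01. Within Piwi-MatKD_2, the library of 21.6 M held the highest value of 23 of the 28 elements with a different value in each library of that group. LTR and LINE elements were high in the same library, with medians of 0.97 and 1.17, and the median of genes was -0.07. Single genes also deviated there: of 10560 genes, 727 were above 1 and 1510 were below -1. The library of 8.5 M, with 5.90% rRNA, had medians of 0.11 for LTR and 0.15 for LINE elements. The part of rRNA content or RNA quality in the values of the 21.6 M library was not tested.

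**Figure D4:**
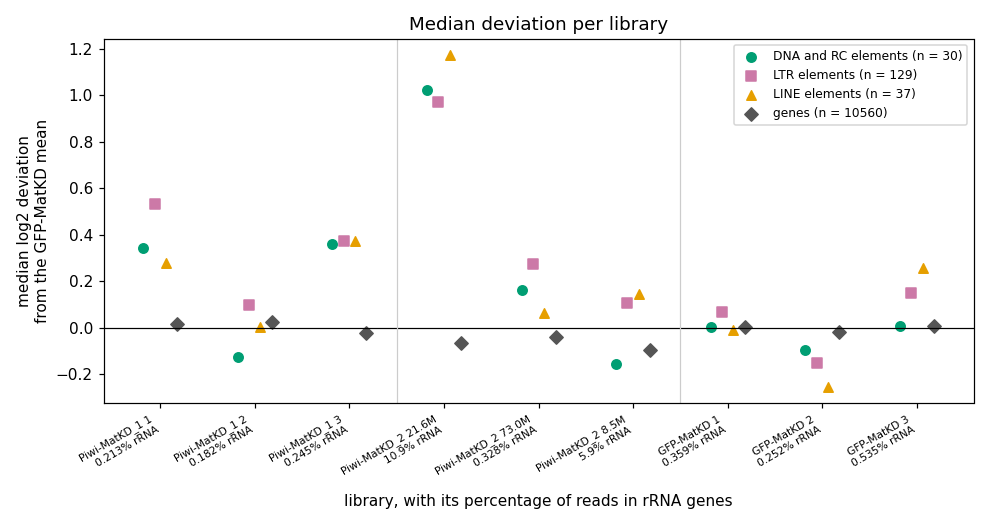
Median log2 deviation from the GFP-MatKD mean (vertical axis) in each of 9 libraries, labelled with its percentage of reads in rRNA genes, for DNA and RC elements, LTR elements, LINE elements and genes. The medians of the 3 element classes stand near 1 in the library of 21.6 M reads of Piwi-MatKD_2, while the median of genes is close to 0 in every library. Scaling by 1 factor per library can itself bring the median of genes near 0. The GFP-MatKD libraries are part of the mean they are set against.

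The spread among replicates was larger for these elements than for features at large, as it was for LTR elements. The median SD of log2 values was 0.37 in Piwi-MatKD_1, 0.73 in Piwi-MatKD_2 and 0.27 in GFP-MatKD over the 30 elements, beside 0.29 in Piwi-MatKD_1, 0.41 in Piwi-MatKD_2 and 0.15 in GFP-MatKD over all 10767 features. LTR elements had 0.42 in Piwi-MatKD_1, 0.64 in Piwi-MatKD_2 and 0.40 in GFP-MatKD. For the 11 elements with a mean of at least 50 normalised reads it was 0.31 in Piwi-MatKD_1, 0.63 in Piwi-MatKD_2 and 0.17 in GFP-MatKD. Over all 7476 features with such a mean it was 0.22 in Piwi-MatKD_1, 0.33 in Piwi-MatKD_2 and 0.11 in GFP-MatKD. That limit has no upper bound, so the elements and features were not matched in level. In Piwi-MatKD_1, replicate 2 was the low library for these 11, with a median deviation of -0.35, beside 0.16 and 0.40 in replicates 1 and 3. It is also the library with the muscle transcripts, whose part in those values was not tested.

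The difference between the lines was tested directly. Of the 30 elements 0 passed in limma between Piwi-MatKD_2 and Piwi-MatKD_1, where 2.22% of all features did, and 4 had an unadjusted p under 0.05, beside 14.2%. edgeR called 0 of 21, beside 2.86%, and DESeq2 called TRANSIB2 alone of 25, beside 7.49%, and limma with array quality weights called 0 of 30, beside 1.97%. The median log2 difference was 0.12, beside -0.05 over all features, and under library totals it was -0.03 beside -0.21. HOBO was lower in every Piwi-MatKD_2 library than in any Piwi-MatKD_1 library, with a difference of -0.49 (95% interval -0.93 to -0.05, adjusted p = 0.298). It was the 1 element of 30 to lie wholly below, beside 9.63% of all features, and BARI_DM and Helitron1_DM, with few reads, lay wholly above, beside 5.99%. TRANSIB2 differed by 1.92 (interval 0.36 to 3.48, adjusted p = 0.251), by 2.46 in DESeq2 (adjusted p = 0.00681), by 2.74 without the library of 73.0 M reads (adjusted p = 0.0376) and by 0.28 without the libraries over 5% rRNA, with 1 Piwi-MatKD_2 library left (adjusted p = 0.884). POGO differed by -0.54 (interval -1.24 to 0.16, adjusted p = 0.510).

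The genes that act on these elements were examined beside them, and those named here other than piwi were chosen after their values were seen. Of 39 genes of piRNA production and piRNA-guided silencing, 38 were in the table and tested. piwi fell in both lines, and 0 of the other 37 passed in any comparison. The shares of all features called were 0.186% for Piwi-MatKD_1, 3.04% for Piwi-MatKD_2, 0.715% for the mean and 2.22% between the lines. At these shares a count of 0 is near the background. aub and AGO3 encode cytoplasmic relatives of Piwi. aub averaged 3836 ± 806 normalised reads in Piwi-MatKD_1, 4083 ± 536 in Piwi-MatKD_2 and 3858 ± 698 in GFP-MatKD (SD, n = 3). AGO3 averaged 5145 ± 1911 in Piwi-MatKD_1, 7337 ± 3568 in Piwi-MatKD_2 and 7019 ± 884 in GFP-MatKD (SD, n = 3). The list's median log2 fold change was -0.07 for Piwi-MatKD_1 and -0.08 for Piwi-MatKD_2. shu, a cochaperone needed for loading piRNAs, came nearest, at 0.63 in Piwi-MatKD_2 (adjusted p = 0.0574 in limma). The 9 listed host factors of P elements repress splicing of the transposase transcript, bind the element's ends or repair the break it leaves. Of these 0 passed, which is likewise near the background. Their median log2 fold change was 0.03 for Piwi-MatKD_1 and 0.12 for Piwi-MatKD_2. Among them Psi, a splicing repressor, was at 0.03 for Piwi-MatKD_1 and 0.07 for Piwi-MatKD_2. Blm, a repair helicase, was at -0.25 for Piwi-MatKD_1 and -0.42 for Piwi-MatKD_2 (adjusted p = 0.422 in limma).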

How the data were processed

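For genes and repeat elements alike, the values deposited by the authors are a normalised signal. Every library's values (100%) were whole multiples of the value of 1 read (tolerance 0.01), so each is a read count over 1 factor per library, and whole reads were recovered from it. The submitters' processing notes name BDGP6, cutadapt, Bowtie 1.2.2 and featureCounts, with no role. Handling of reads with several matches, use of strand and the repeat annotation are not given in the sources used here. The labels' protocols name TRIzol and a stranded mRNA kit, and the series is called total RNA-seq, so the RNA selection is uncertain. Each row sums all copies of an element, and element transcripts are not told apart from host transcripts that contain a copy. Of 18 samples, the 9 small RNA samples were not used here.

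Features that reached 1 in at least 3 libraries were tested with lmFit and trended eBayes of limma 3.58.1 in R 4.3.3 on log2(value + 1), with group as the only term and all 9 libraries sharing 1 estimate of the spread. Fold changes are on that scale, which understates those of low elements, and intervals are unadjusted. Alternatives were edgeR 4.0.16 (quasi-likelihood, TMM), DESeq2 1.42.0, other pseudocounts (0.5 and 5), filters (none, or a value of at least 10) and scalings (library totals, quantile), array quality weights, the compared groups alone, a replicate block and left-out libraries; adjusted p-values that DESeq2 gave as missing were left out. The limma, edgeR and DESeq2 fits were tested on simulated data, where DESeq2 made the most false calls. Plots used matplotlib 3.10.9 in Python 3.11.15.

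Elements described in full were BARI1, any that passed, any whose 6 Piwi-MatKD libraries lay on 1 side of all controls, and the most read element of each family. Members and gene lists were chosen with earlier results of these data known. Of the listed genes, sov was not analysed here.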

Additional observations from a re-analysis of the deposited data

How the results depend on the processing

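Over all settings run, 0 elements passed in Piwi-MatKD_1, beside 0.186% of all features in the main limma fit. In Piwi-MatKD_2 the count of elements called was 2 of 25 in DESeq2 (HOBO and TRANSIB2), beside 8.36% of all features. With array quality weights it was 3 of 30 (HOBO, POGO and S2_DM), beside 17%, and with a library left out it was 0 to 1. For the mean of both lines it was 1 of 30 with array quality weights (HOBO), beside 3.74%. The estimation of these weights stopped before it converged. Between the lines it was 1 of 25 in DESeq2 (TRANSIB2), beside 7.49%, and 0 to 1 with a library left out. Shares of all features called with a library left out are not given here. Why the counts differed between settings was not tested. For piwi in Piwi-MatKD_1 the log2 fold change ran from -4.77 to -4.43 with a library left out, and 7 of 9 such fits missed the threshold (adjusted p up to 0.133).

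Of 384 other fits of single elements, 367 kept direction and side of the threshold, as did 291 of 309 with a library left out. Signs turned for BARI1 under quantile normalisation (-0.016 in Piwi-MatKD_1, 0.16 in Piwi-MatKD_2) and in DESeq2 (0.40 in Piwi-MatKD_2), for DNAREP1_DM in Piwi-MatKD_2 with array weights (-0.031) and without the libraries over 5% rRNA, which leaves 1 Piwi-MatKD_2 library (-0.059), for PROTOP_B in Piwi-MatKD_1 with array weights (0.026) and in Piwi-MatKD_2 without those libraries (-0.11), for LOOPER1_DM in Piwi-MatKD_1 with array weights (0.22), and for MARINA in Piwi-MatKD_2 under quantile normalisation (0.24), with array weights (0.30) and without those libraries (0.39). With 1 library left out, ranges that crossed 0 in Piwi-MatKD_1 were -0.091 to 0.38 for BARI1, -0.29 to 0.10 for TRANSIB2, -0.22 to 0.12 for DNAREP1_DM, -0.29 to 0.042 for PROTOP_B, -0.73 to 0.59 for LOOPER1_DM and -0.37 to 0.15 for POGO. In Piwi-MatKD_2 they were -1.39 to 0.65 for BARI1, -0.16 to 0.48 for DNAREP1_DM, -0.0084 to 0.58 for PROTOP_B, -0.41 to 0.90 for LOOPER1_DM, -0.62 to 0.093 for FB4_DM and -0.047 to 0.95 for Transib5.

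The median log2 fold change of the elements in Piwi-MatKD_1 was -0.01 under quantile normalisation and 0.15 under library totals. In Piwi-MatKD_2 it was 0.61 under quantile normalisation, 0.20 under library totals, which moved the median of all features to -0.19, and 0.19 without the libraries over 5% rRNA. With replicate number as a block, possible for GFP-MatKD and Piwi-MatKD_1 alone, 0 of 28 elements passed. The numbers did not pair these libraries, whose deviations had correlations of -0.130, -0.230 and -0.299 across features. The compared groups alone could not be fitted for the mean of both lines. An interval within 1 log2 unit of 0 was reached in Piwi-MatKD_1 by 7 of 11 elements with a mean of at least 50 normalised reads and 0 of 19 below it, and in Piwi-MatKD_2 by 2 of 11 and 1 of 19.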
